A study of Homo sapiens with 12 samples.

Results

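Class I histone deacetylases (HDACs) and their corepressor partners were followed as 9 genes: the deacetylases HDAC1, HDAC2, HDAC3 and HDAC8, and the corepressor genes RCOR1, SIN3A, NCOR1, MTA1 and CHD4. Members were the probe sets whose gene symbol, current or former, in the annotation of the array is 1 of these 9 names. This gave 18 of 54613 probe sets, covering 8 of the 9 genes, while NCOR1 was not analysed here. The cells were HD-MB03, a human line of MYC-amplified medulloblastoma, and entinostat (also named MS275) is a benzamide inhibitor of class I HDACs. The 4 groups were HD-MB03 cells exposed to 1 µM entinostat for 24 h, their DMSO solvent controls of 24 h, cells exposed to 1 µM entinostat for 48 h, and the DMSO controls of 48 h. Each group had 3 biological replicates, with 1 array (Affymetrix U133 Plus 2.0) per replicate, and all 12 arrays hold the same line, so the spread within a group is that between cultures of 1 line.

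Class I HDACs are nuclear, zinc-dependent enzymes that remove acetyl groups from histone tails and other proteins. HDAC1 and HDAC2 are close paralogs that work inside multi-protein corepressor complexes, above all NuRD (with the remodelling ATPase CHD4 and the MTA proteins), SIN3 (scaffolded by SIN3A or SIN3B) and CoREST (with RCOR1, which joins the deacetylase to the demethylase KDM1A). HDAC3 is activated by its corepressor partner NCOR1, whereas HDAC8 is active without such a partner and deacetylates the cohesin subunit SMC3.

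Of the 9 genes, HDAC1, HDAC3 and RCOR1 were higher under entinostat at both times, HDAC2 was higher at 24 h, and MTA1 and HDAC8 were lower at both times, each by its lead probe set (the probe set of a gene with the highest mean log2 intensity over the 12 arrays). The lead probe sets of SIN3A and CHD4 did not pass the test at either time. The largest rise was that of RCOR1, 1.63-fold at 24 h, and the largest fall that of MTA1, to 0.48 of DMSO at 48 h. The promoters of 4 of these genes, which carry the largest changes of this set in both directions, are shown first. Each line gives the 250 bases before the RefSeq transcription start in GRCh38.p14, on the strand of the gene, 5′ to 3′. Capitals mark matches, in either orientation, to the GC box (GGGCGG, or CCGCCC on the opposite strand), the core bound by SP1, and to the CCAAT box (CCAAT, or ATTGG on the opposite strand), the core bound by NF-Y. The windows are chr1:32291833-32292082 (plus strand) for HDAC1, chr5:141636850-141637099 (minus strand) for HDAC3, chr14:102592399-102592648 (plus strand) for RCOR1 and chr14:105419577-105419826 (plus strand) for MTA1.
HDAC1: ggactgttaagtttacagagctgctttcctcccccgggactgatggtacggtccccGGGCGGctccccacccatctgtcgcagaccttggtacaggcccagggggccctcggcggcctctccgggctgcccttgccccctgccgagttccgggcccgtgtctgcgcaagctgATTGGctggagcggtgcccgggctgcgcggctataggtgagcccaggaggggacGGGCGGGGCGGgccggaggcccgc
HDAC3: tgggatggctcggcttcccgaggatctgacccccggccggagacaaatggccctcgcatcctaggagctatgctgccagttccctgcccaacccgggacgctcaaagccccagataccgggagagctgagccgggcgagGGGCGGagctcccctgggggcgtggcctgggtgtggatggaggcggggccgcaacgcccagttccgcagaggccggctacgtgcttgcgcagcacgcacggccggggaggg
RCOR1: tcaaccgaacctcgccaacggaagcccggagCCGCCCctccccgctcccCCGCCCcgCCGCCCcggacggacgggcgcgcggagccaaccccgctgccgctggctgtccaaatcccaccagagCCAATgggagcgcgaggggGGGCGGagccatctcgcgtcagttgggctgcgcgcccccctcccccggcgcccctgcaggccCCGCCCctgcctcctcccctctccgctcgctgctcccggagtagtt
MTA1: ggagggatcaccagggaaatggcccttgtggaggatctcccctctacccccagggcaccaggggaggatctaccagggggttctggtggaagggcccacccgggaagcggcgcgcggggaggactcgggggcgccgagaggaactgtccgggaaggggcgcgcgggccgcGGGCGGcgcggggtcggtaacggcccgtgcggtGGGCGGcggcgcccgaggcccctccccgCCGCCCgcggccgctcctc
RCOR1 held 5 GC boxes in its window, HDAC1 and MTA1 held 3 each, and HDAC3 held 1. Of the 3 in HDAC1, 2 overlap each other and begin 24 and 19 bases before the start. A CCAAT box stood 78 bases before the start in HDAC1 and 127 bases before it in RCOR1, and none was found in these windows of HDAC3 and MTA1. Among 35116 RefSeq promoter windows of the same length, 42.6% held a GC box and 32% a CCAAT box. The MYC/MAX E-box (CACGTG, its own reverse complement) occurred in 6.34% of all windows and in none of these 4. GC made up 71.6% of the HDAC1 window, 70.8% of that of HDAC3, 76.4% of that of RCOR1 and 76.8% of that of MTA1. The windows of HDAC2, which was higher at 24 h, and of HDAC8, which was lower at both times, held 0 GC boxes and 0 CCAAT boxes. These matches are a description of the letters only.

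Values are intensities on a linear scale, as deposited, and fold changes are log2 differences of entinostat minus DMSO from limma, with Benjamini-Hochberg adjusted p over all probe sets and a threshold of 0.05. The values keep a background level (array medians were 80.6 to 81.8 and the lowest value 36.7), so that the log2 changes of dim probe sets understate the change. The medulloblastoma genes MYC (10900.4 to 13272) and OTX2 (5434 to 7142) were bright on all arrays, whereas NPR3 (68.1 to 84.9) and CRX (82.9 to 146.8), further markers of group 3 medulloblastoma, were dim. Of the other 3 markers of that group, IMPG2 averaged 725 under entinostat and 2880.3 in DMSO at 24 h, and 1199 under entinostat and 3417 in DMSO at 48 h. GABRA5 averaged 270.4 under entinostat and 924 in DMSO at 24 h, and 207 under entinostat and 896 in DMSO at 48 h, and NRL averaged 858 under entinostat and 1076 in DMSO at 24 h, and 1293 under entinostat and 2189 in DMSO at 48 h. These 3 markers thus had lower means under entinostat at both times. So did OTX2, with 5618 against 6561 in DMSO at 24 h and 6614 against 6995 in DMSO at 48 h. The dim CRX and NPR3 also had lower means under entinostat at both times, whereas MYC had higher means. The part of these differences in the results below was not tested. Marker genes of 4 other cell types, 13 in all, lay at 45.8 to 112.5. As a measure of RNA integrity, GAPDH signal at its 3′ end differed by -0.18 to -0.03 log2 from that at its 5′ end on the 12 arrays. In bulk RNA of this kind, fewer cells of a type and less RNA per cell cannot be told apart. Levels were compared between groups within a probe set, not between probe sets.

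HDAC1 rose at both times. Its only probe set, 201209_at, gave 1012, 1022 and 1071 in the entinostat replicates of 24 h, against 764, 729.8 and 798 in DMSO. At 48 h it gave 947, 1280.2 and 1139 under entinostat, against 743, 806 and 829 in DMSO. Every entinostat array lay above every DMSO array at both times, and the entinostat cultures of 48 h were spread more widely (SD 167 around a mean of 1122) than those of 24 h (SD 31.3 around 1035). The log2 fold change was 0.44 at 24 h (SE 0.09, adjusted p = 0.00324 by limma) and 0.49 at 48 h (SE 0.09, adjusted p = 0.00138).

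HDAC2, the paralog of HDAC1, was measured by 2 probe sets. The lead probe set 201833_at gave 3685, 2979 and 3022 in entinostat cells at 24 h, against 2048, 2738 and 2193 in DMSO. At 48 h it gave 2755, 3524 and 2737 under entinostat, against 2701, 2672 and 2597 in DMSO. Groups did not overlap at either time, yet at 48 h the lowest entinostat array stood just above the highest DMSO array, and entinostat replicate 2 was far above the other two. The rise passed the test at 24 h (log2 fold change 0.48, SE 0.12, adjusted p = 0.0119) and missed it at 48 h (0.17, 95% confidence interval -0.10 to 0.44, adjusted p = 0.393). The difference between the times was itself -0.31 (interval -0.69 to 0.07, adjusted p = 0.516), so the data do not show that HDAC2 responded differently at 24 h and 48 h. The call at 24 h was lost without entinostat replicate 1 (0.38) and without DMSO replicate 1, with an adjusted p of at most 0.0565. The dimmer probe set 242141_at lay at 169 ± 26.2 in entinostat and 188 ± 13.5 in DMSO at 24 h, and at 159 ± 4.97 in entinostat and 179 ± 6.89 in DMSO at 48 h (SD, n = 3 each). Its log2 fold changes of -0.17 (interval -0.38 to 0.04, adjusted p = 0.265) and -0.18 (-0.39 to 0.03, adjusted p = 0.234) did not pass the test. The probe sets of HDAC2 thus disagreed in sign, and at 24 h their intervals did not overlap.

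HDAC3, the catalytic subunit of the NCoR complex, showed the largest rise among the deacetylases. Its only probe set, 216326_s_at, measured 576, 453 and 523 under entinostat at 24 h, against 343, 300.3 and 358 in DMSO. After 48 h the entinostat arrays had 429, 509 and 397, against 319.7, 298 and 302 in DMSO. The groups were separate at both times. Log2 fold changes were 0.63 at 24 h (SE 0.11, interval 0.40 to 0.86, adjusted p = 0.000646) and 0.53 at 48 h (interval 0.30 to 0.76, adjusted p = 0.00212). The suffix _s_at marks a probe set that can bind several transcripts, and its signal was not split between them here.

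HDAC8 was the deacetylase that fell. In its lead probe set 223345_at the entinostat cultures of 24 h had 159, 156 and 168, against 183, 197 and 188 in DMSO, and at 48 h they had 141, 146 and 162, against 204, 198 and 189.7 in DMSO. All entinostat arrays lay below all DMSO arrays at both times. The log2 fold change was -0.24 at 24 h (SE 0.06, adjusted p = 0.0145) and -0.40 at 48 h (SE 0.06, adjusted p = 0.000373), and the interaction of -0.16 did not pass (interval -0.36 to 0.03, adjusted p = 0.495). At 24 h the threshold was missed without replicate 2 of either group (adjusted p of up to 0.0583), with log2 fold changes of -0.27 to -0.21 over the 12 refits without 1 array. A further probe set, 223909_s_at, also had lower means, passing at 24 h only, with means of 158 under entinostat and 185 in DMSO at 24 h (log2 fold change -0.23, adjusted p = 0.0245, not kept in 4 of 12 refits without 1 array) and of 157 under entinostat and 179 in DMSO at 48 h (-0.19, adjusted p = 0.0581). The dim 223908_at, at 65.7 to 92.8 on all arrays, did not pass, with -0.12 at 24 h and 0.04 at 48 h.

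**Figure D1:**
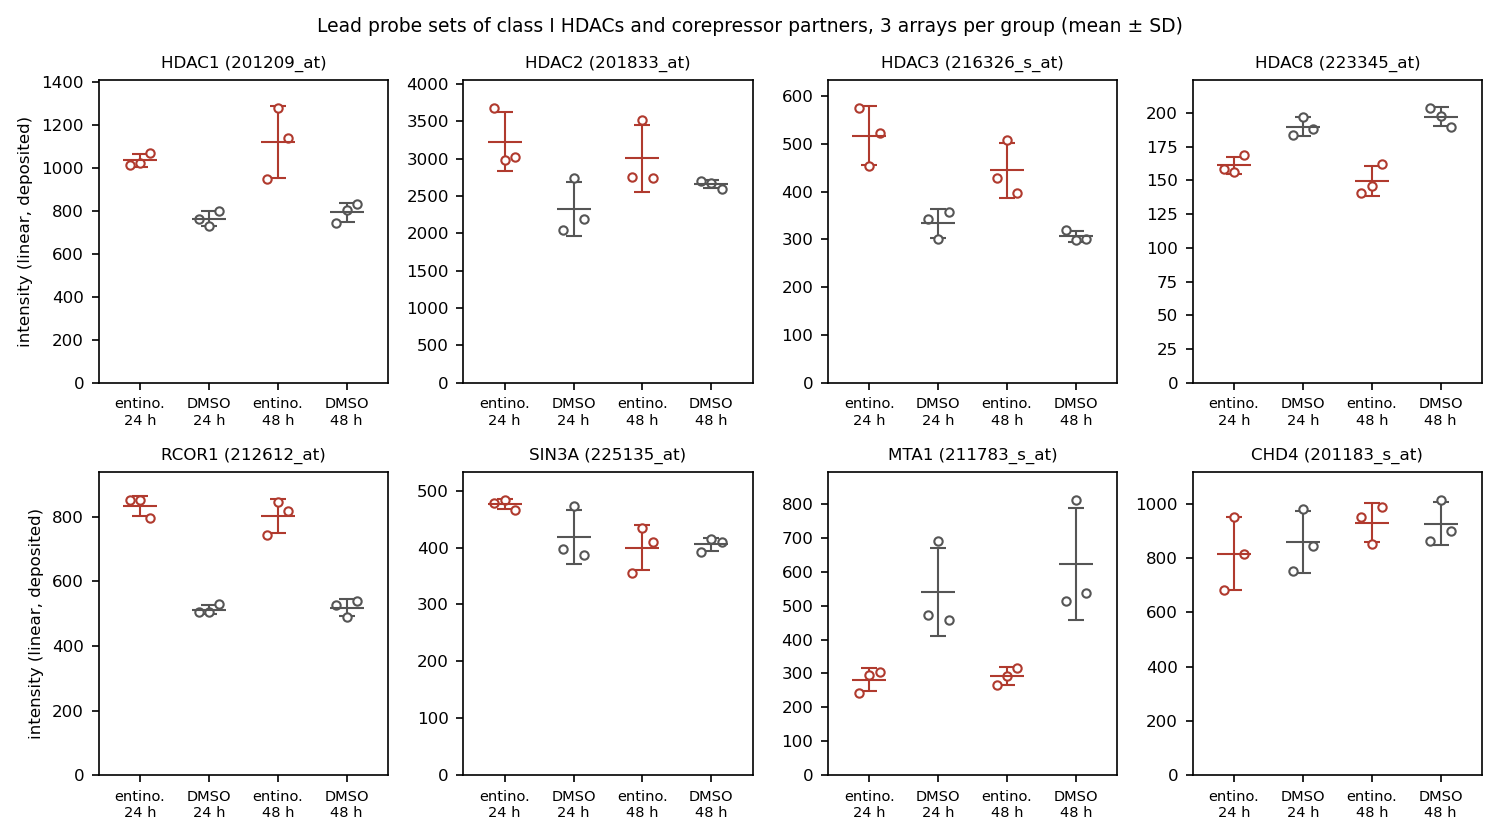
Intensity (linear, as deposited) of the lead probe sets of 8 genes in the 4 groups, with open circles for the 3 arrays of a group and bars for mean ± SD, entinostat in red and DMSO in grey. Entinostat arrays lie above all DMSO arrays of their time for HDAC1, HDAC2, HDAC3 and RCOR1, narrowly so for HDAC2 at 48 h. They lie below them for MTA1 and HDAC8, and overlap them for SIN3A and CHD4.

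RCOR1, the CoREST scaffold that holds HDAC1 or HDAC2 together with KDM1A, gave the most precise rise of the set. Lead probe set 212612_at gave 852, 853 and 798 under entinostat at 24 h, against 505, 504 and 529 in DMSO. At 48 h the intensities were 746, 848 and 817 under entinostat, against 528, 489.6 and 539 in DMSO. All entinostat arrays lay above all DMSO arrays at both times, and DMSO cultures averaged 519 ± 25.9 at 48 h and 513 ± 14.4 at 24 h (SD, n = 3 each). The log2 fold change was 0.70 at 24 h (SE 0.06, interval 0.57 to 0.84, adjusted p = 3.45e-06) and 0.63 at 48 h (interval 0.50 to 0.76, adjusted p = 7.64e-06). The other probe set, 237041_x_at, was dim (82.7 to 105 on all arrays) and ends in _x_at, a mark of possible binding to other genes. Its log2 fold change was 0.04 at 24 h (adjusted p = 0.758), with 0.19 at 48 h (adjusted p = 0.104).

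MTA1, a NuRD subunit that binds HDAC1 and HDAC2 and was first described as metastasis-associated, had the largest change of all 18 probe sets. Its lead probe set 211783_s_at gave 242, 295 and 305 under entinostat at 24 h, against 474, 690.5 and 459 in DMSO. At 48 h it gave 265, 292 and 318 under entinostat, against 515, 813 and 538 in DMSO. Groups were well apart at both times, and DMSO replicate 2 was the highest array at both times. Log2 fold changes were -0.93 at 24 h (SE 0.18, interval -1.33 to -0.53, adjusted p = 0.00219) and -1.07 at 48 h (interval -1.47 to -0.67, adjusted p = 0.000753), and without that DMSO array they were -0.74 at 24 h and -0.86 at 48 h, both still past the threshold. The dimmer probe set 202247_s_at had 84.4, 85.3 and 88.8 under entinostat at 24 h, against 109, 101 and 118 in DMSO. At 48 h it had 83.8, 80.5 and 91.1 under entinostat, against 130.2, 124 and 130.0 in DMSO. It fell too, by 0.34 on the log2 scale at 24 h (adjusted p = 0.00201) and by 0.59 at 48 h (adjusted p = 2.58e-05), again with no overlap between the groups.

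SIN3A, the scaffold of the SIN3 complex, was measured by 4 probe sets. In the lead probe set 225135_at the entinostat cultures of 24 h had 479, 484 and 467, against 397, 474 and 386 in DMSO, and those of 48 h had 356, 434 and 409, against 393, 415 and 409 in DMSO. The groups overlapped at both times, at 24 h through DMSO replicate 2 alone. The log2 fold changes were 0.19 at 24 h (interval 0.01 to 0.38, adjusted p = 0.133) and -0.03 at 48 h (interval -0.21 to 0.16, adjusted p = 0.881). Leaving out DMSO replicate 2 of 24 h turned the first of these into a call (0.28, adjusted p = 0.0205). The dim probe set 238006_at fell at 48 h, to 84.3, 88.4 and 87.0 under entinostat, against 94.0, 104 and 104 in DMSO (log2 fold change -0.22, SE 0.06, adjusted p = 0.0113), and had -0.02 at 24 h (adjusted p = 0.846). Probe set 238005_s_at spread widely within DMSO, with 212, 333 and 214 at 24 h and 196, 361 and 341 at 48 h, and its differences of 0.07 and -0.21 did not pass. The weakest, 238189_at, stayed at 49.7 to 61.3 on all arrays and did not pass at either time.

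CHD4, the ATPase of NuRD, was measured by 3 probe sets. None passed the test in the main fit, which covers all probe sets and does not use replicate numbers as pairs. The lead probe set 201183_s_at gave 683, 953 and 816 under entinostat at 24 h, against 754, 982 and 844 in DMSO, and 952, 851 and 991 under entinostat at 48 h, against 863, 1016 and 902 in DMSO. The groups overlapped at both times, with log2 fold changes of -0.08 (interval -0.35 to 0.19, adjusted p = 0.725) at 24 h and 0.01 (interval -0.26 to 0.28, adjusted p = 0.98) at 48 h. These intervals leave room for a change of CHD4 of up to their bounds in either direction. Probe set 201182_s_at averaged 392 ± 49.7 under entinostat and 500.1 ± 78.9 in DMSO at 24 h (SD, n = 3 each). Its log2 fold change of -0.35 missed the threshold narrowly (adjusted p = 0.0518) and passed without DMSO replicate 2 (-0.46, adjusted p = 0.0114) and when probe sets with a mean log2 under 7 were left out of the adjustment (adjusted p = 0.0321). It also passed without entinostat replicate 3 of 24 h (-0.43, adjusted p = 0.0288) and in the limma fit with the replicate number as a block (adjusted p = 0.0157). At 48 h the log2 fold change of 201182_s_at was -0.23 (adjusted p = 0.195). Its groups overlapped at 24 h, while at 48 h all entinostat arrays lay below all DMSO arrays. For 201184_s_at the log2 fold change was -0.19 at 24 h (adjusted p = 0.139), with -0.22 at 48 h (adjusted p = 0.0827, and 0.0495 without the dim probe sets). Without DMSO replicate 3 of 48 h it passed at 48 h (-0.30, adjusted p = 0.0191). All entinostat arrays of this probe set lay below all DMSO arrays at 24 h, and the groups overlapped at 48 h.

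**Figure D2:**
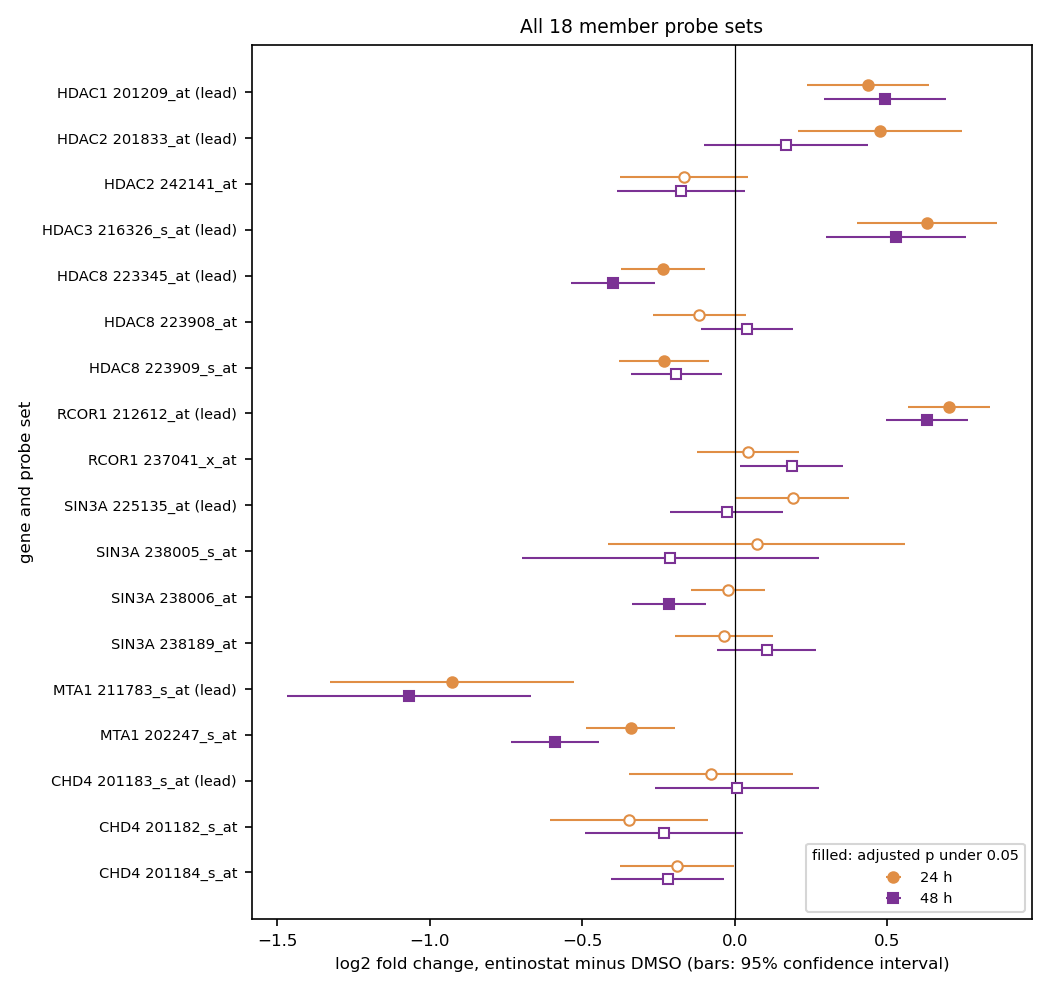
Log2 fold change (entinostat minus DMSO, x axis) of all 18 member probe sets, with 95% confidence intervals as bars, circles for 24 h and squares for 48 h, filled where the adjusted p is under 0.05. RCOR1, HDAC3 and HDAC1 lie to the right at both times and both probe sets of MTA1 to the left, down to -1.07, while the probe sets of HDAC2 fall on opposite sides of 0.

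Counted over all members, 4 of 18 probe sets rose and 4 fell at 24 h, 44.4% in all, where 25.2% of all 54613 probe sets passed (12.8% higher, 12.4% lower). At 48 h, 3 rose and 4 fell, 38.9% of the members, against 26.1% of all probe sets (12.9% higher, 13.2% lower). Of the 18 members, 13 had a mean log2 of at least 7, whereas 67.05% of all probe sets lay under it. Among all probe sets of at least that brightness 50.1% passed at 24 h and 52.1% at 48 h, and the members above it had 53.8% and 38.5%, so that their share lay near or below that background. By lead probe sets, 6 of 8 genes passed at 24 h (75%, against 33.2% of 19775 genes) and 5 of 8 at 48 h (62.5%, against 34%). All 8 lead probe sets had a mean log2 of at least 7, and among the 9353 genes with such a lead probe set 53.7% passed at 24 h and 55.4% at 48 h. Members had a median absolute log2 fold change of 0.211 at 24 h, with 0.213 at 48 h, against 0.106 over all probe sets at both times. These medians were not matched for brightness, and the log2 changes of dim probe sets understate the change. Arrays did not overlap between the groups for 9 members at 24 h (4 higher, 5 lower) and for 11 at 48 h (5 higher, 6 lower), where 38.9% of all probe sets were separate at 24 h (17.4% higher, 21.5% lower) and 37.9% at 48 h (17.4% higher, 20.5% lower). The shares of separate probe sets were not matched for brightness either.

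No member changed with time past the threshold. For 48 h against 24 h under entinostat, 0 of 18 member probe sets passed (limma, lowest adjusted p = 0.0976, with 4 at an unadjusted p under 0.05), where 7.19% of all probe sets did and 19.4% had such an unadjusted p. In DMSO, 0 of 18 passed (lowest adjusted p = 0.0587, 2 at an unadjusted p under 0.05), where 0.359% of all did and 11% had such an unadjusted p. These 196 calls in DMSO became 1 without DMSO replicate 3 of 48 h and 344 without DMSO replicate 3 of 24 h, and the calls under entinostat, 3926 in all, became 2360 without entinostat replicate 2 of 24 h. The member closest to the threshold in DMSO was HDAC8 probe set 223908_at, which had 74.6, 65.7 and 71.2 at 48 h, against 91.8, 92.8 and 84.5 at 24 h. The interaction of treatment and time passed for 0 of 18 members (lowest adjusted p = 0.275, for MTA1 probe set 202247_s_at, and 2 at an unadjusted p under 0.05), where 1.21% of all passed and 12.8% of all had such an unadjusted p. The 660 interaction calls over all probe sets fell to between 210 (without DMSO replicate 3 of 48 h) and 502 in the refits without 1 array. The effects at 24 h and at 48 h were thus not shown to differ for any member. Each time had its own DMSO arrays, and the sign of the log2 fold change was the same at both times in the lead probe sets of HDAC1, HDAC2, HDAC3, HDAC8, RCOR1 and MTA1.

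The wider complexes were described by 55 further genes with a listed probe set, in 6 lists (NuRD, SIN3, CoREST, NCoR, MiDAC, cohesin and its regulators), each gene by its lead probe set. At 24 h, 12 rose, 19 fell and 24 did not pass (56.4% passed, against 33.2% of all genes, 18.2% higher and 15% lower). At 48 h, 10 rose and 20 fell (54.5%, against 34% of all genes, 17.3% higher and 16.6% lower). Of the 55 lead probe sets, 52 had a mean log2 of at least 7, and 57.7% of these passed at 24 h and 55.8% at 48 h, which is near the 53.7% and 55.4% of all genes of that brightness. In 8 genes a rise and in 15 a fall passed at both times, and the share of all genes that did so was not counted. As with HDAC1 and MTA1 in NuRD, subunits of the same complex moved in opposite directions. RBBP4 and RBBP7 belong to NuRD and SIN3 and are counted in both lists but once in the total. The counts of each list below stand against the same 53.7% at 24 h and 55.4% at 48 h of all genes of that brightness.

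Among 11 further NuRD genes, 2 rose and 6 fell at 24 h and 2 rose and 5 fell at 48 h, and the median log2 fold change was -0.343 at 24 h and -0.216 at 48 h (over all genes -0.02 at 24 h and -0.015 at 48 h). Among all genes with a lead probe set of a mean log2 of at least 7, 53.7% passed at 24 h and 55.4% at 48 h. The medians over all genes include many dim ones and were not matched for brightness. CHD3, the ATPase that can take the place of CHD4, fell to 127.9, 136.2 and 138.7 under entinostat at 24 h, against 184, 190.9 and 162.2 in DMSO. At 48 h it had 98.5, 113 and 112 under entinostat, against 187, 197 and 186 in DMSO, so that its log2 fold change was -0.41 at 24 h (adjusted p = 0.00101), with -0.82 at 48 h (adjusted p = 3.55e-06). The paralogs of MTA1, named here for that reason only, fell as well, MTA2 by 0.46 at 24 h (adjusted p = 0.00058) and 0.30 at 48 h, and MTA3 by 0.34 and 0.22 on the log2 scale. The methyl-CpG domain protein MBD3 fell by 0.51 at 24 h and 0.52 at 48 h (adjusted p = 1.01e-05 at 24 h), whereas MBD2, which occupies the same place in a separate form of NuRD, rose by 0.47 at 24 h and 0.45 at 48 h. GATAD2B, which links the MBD subunit to CHD4, rose by 0.49 at 24 h and by 0.20 at 48 h (adjusted p = 0.0329, lost in 3 refits without 1 array, and 0.0787 both after subtraction of 30 from every intensity and in a separate fit per time).

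Of 15 further SIN3 genes, 3 rose and 4 fell at 24 h and 3 rose and 3 fell at 48 h. SAP30L and SAP130, subunits that bind SIN3A or stabilise the complex, rose by 0.54 and 0.45 at 24 h, and by 0.46 and 0.19 at 48 h (adjusted p = 0.0198 for SAP130 at 48 h, lost in 2 refits without 1 array, and 0.0517 after subtraction of 30). SINHCAF, a SIN3-HDAC complex factor, fell to 1674, 1555 and 1709 under entinostat at 24 h, against 2436, 2381 and 2419 in DMSO (log2 fold change -0.55, and -0.45 at 48 h). RBBP4, a histone-binding subunit that SIN3 shares with NuRD, fell by 0.38 at 24 h and by 0.47 at 48 h.

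Of 12 further CoREST genes, 3 rose and 3 fell at 24 h and 2 rose and 5 fell at 48 h. The corepressor CTBP1 fell to 1390, 1286 and 1283 under entinostat at 24 h, against 2368, 2366 and 1960 in DMSO, and to 1029, 1158 and 1174 under entinostat at 48 h, against 2288, 2363 and 2350 in DMSO. These are log2 fold changes of -0.75 (adjusted p = 1.49e-05) and -1.06 (adjusted p = 7.58e-07) in a probe set that ends in _x_at. The zinc finger protein ZNF217 rose by 0.55 at 24 h and by 0.31 at 48 h (adjusted p = 0.0251, lost in 3 refits without 1 array), while ZMYM3, another zinc finger subunit, fell by 0.40 at 24 h (lost in 2 such refits) and by 0.57 at 48 h. KDM1A, named here only as the demethylase that RCOR1 joins to the deacetylase, rose by 0.32 at 24 h (adjusted p = 0.0031). At 48 h its 0.15 did not pass (adjusted p = 0.13). RCOR1 thus rose in a complex whose other subunits moved in both directions.

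NCoR, the complex of HDAC3, had 4 further genes with a listed probe set, of which 2 rose and 1 fell at 24 h and 2 rose at 48 h. CORO2A, an actin-binding subunit, rose to 191.8, 292.6 and 193.2 under entinostat at 24 h, against 120.0, 90.3 and 81.1 in DMSO, and to 209.7, 218.5 and 188.7 under entinostat at 48 h, against 123.8, 135.9 and 130.4 in DMSO. Its log2 fold change was 1.21 at 24 h (adjusted p = 0.00012), with 0.66 at 48 h (adjusted p = 0.0087), the largest rise among the genes named here. GPS2, a core subunit of the complex, rose by 0.29 at 24 h and 0.30 at 48 h. In the mitotic deacetylase complex MiDAC, none of 3 genes passed at 24 h and 1 fell at 48 h.

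Cohesin, whose subunit SMC3 is the substrate of HDAC8, was followed as 12 genes with its regulators, of which 2 rose and 6 fell at 24 h and 1 rose and 7 fell at 48 h. Of all genes with a lead probe set of a mean log2 of at least 7, 53.7% passed at 24 h and 55.4% at 48 h. The medians of the cohesin list were -0.137 and -0.275 (over all genes -0.02 at 24 h and -0.015 at 48 h, not matched for brightness). SMC3, named here only as that substrate, rose by 0.20 at 24 h (adjusted p = 0.0216) and had -0.06 at 48 h (adjusted p = 0.501). STAG1, a core subunit, fell to 239.6, 225.2 and 219.9 under entinostat at 24 h, against 354.1, 352.1 and 352.2 in DMSO, a log2 fold change of -0.63 (adjusted p = 1.46e-05), and by 0.58 at 48 h. STAG2, its paralog, fell by 0.53 at 24 h and by 0.35 at 48 h. ESCO2, an acetyltransferase of SMC3, rose by 0.37 at 24 h and by 0.28 at 48 h (adjusted p = 0.0407, not kept in 7 of 12 refits without 1 array, and 0.0655 after subtraction of 30). None of the partner genes named here passed the interaction test.

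**Figure D3:**
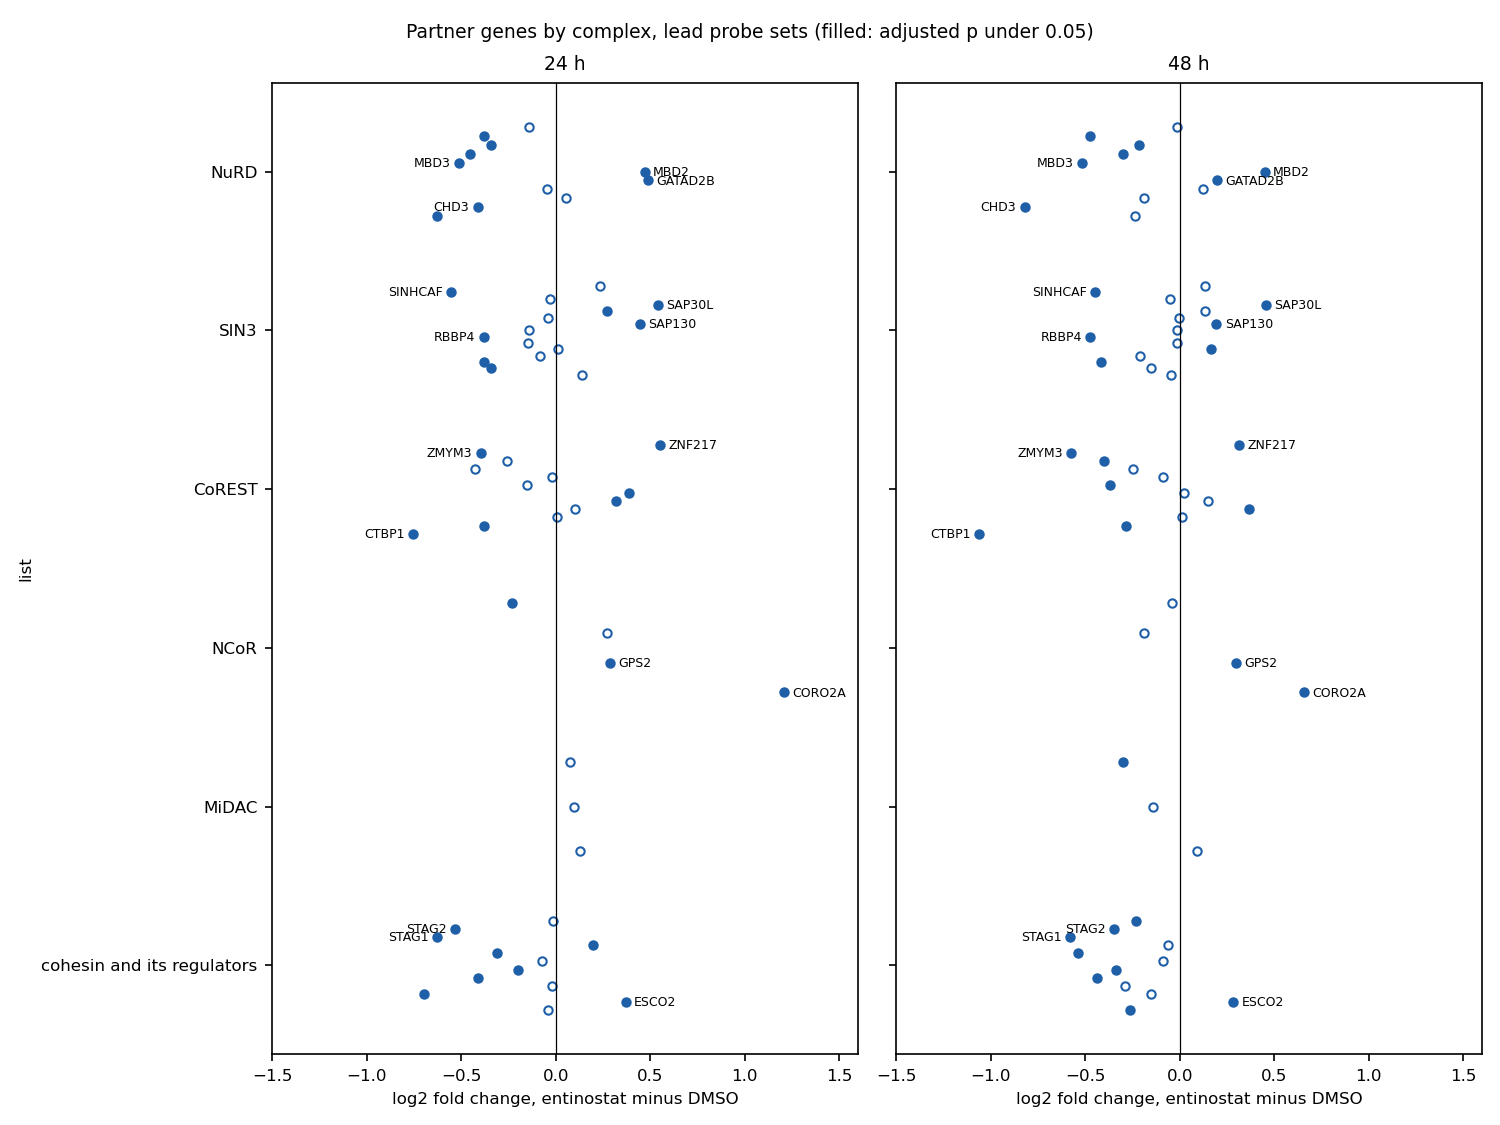
Log2 fold change (entinostat minus DMSO, x axis) at 24 h in the left panel and 48 h in the right panel for the partner genes of 6 lists (rows), 1 point per gene, filled where the adjusted p is under 0.05. RBBP4 and RBBP7 are drawn in 2 rows, and within NuRD, SIN3 and CoREST points lie on both sides of 0, with CORO2A farthest right at 24 h (1.21) and CTBP1 farthest left at 48 h (-1.06).

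The probe sets whose log2 intensities followed the deacetylases most closely over the 12 arrays were sought among 9944 probe sets with a mean log2 of at least 8. HDAC1 was most like ALG6 (Pearson r = 0.977) and HM13 (0.972), HDAC3 most like MLF1 (0.971) and LRRC42 (0.97), and HDAC8 most like CACYBP (0.97) and NDUFB11 (0.968). The correlation of HDAC2 was highest with RAB2A (0.897) and NET1 (0.893). The number of probe sets of other genes above an r of 0.9 was 400 for HDAC1, 0 for HDAC2, 275 for HDAC3 and 526 for HDAC8, all over arrays that share the same 4 treatment groups.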

How the data were processed

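RNA of HD-MB03 cells was hybridised to 12 arrays in 4 groups of 3 biological replicates, whose groups were taken from the sample titles. The methods name GCRMA normalisation of the array scans (version not given in the sources used here). Whether the deposited intensity values are its output was not checked. The methods also name a log2 transformation, but the values are on a linear scale, so log2 was taken here. The background level left in them makes the log2 changes of dim probe sets smaller. Precision is limited by the number of arrays. With 62 control probe sets removed, limma 3.58.1 in R 4.3.3 was fitted to 54613 probe sets (1 coefficient per group, Benjamini-Hochberg adjustment, threshold 0.05), a procedure tested on simulated data. Gene symbols came from the platform annotation (41091 probe sets with 1 symbol, 1801 with several, 11721 with none), and promoters from RefSeq (GRCh38.p14). A gene was represented by its probe set of the highest mean. Of each partner list, named were up to 2 of the highest and 2 of the lowest mean log2 fold changes over both times among genes past the threshold in 1 direction at both. Members, partner lists and tests were chosen with earlier results of these data known. Replicate numbers were not taken as pairs in the main fit. Of the same-numbered pairs of arrays, within and across times, 11 of 18 had correlated deviations (r over 0.1, range -0.065 to 0.311). In the other treatment at the same time, 10 of 12 arrays correlated best with their own number. These values do not settle whether the cultures were paired, so a fit with the number as a block is among the alternatives. The fits were repeated after removing dim probe sets (mean log2 under 7), centring, quantile normalisation or subtraction of 30, with a trended robust prior, with the replicate number as a block, for each time alone, with another probe set per gene, at a threshold of 0.01, and without each array in turn.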

Additional observations from a re-analysis of the deposited data

How the results depend on the processing

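The calls of HDAC1, HDAC3, RCOR1 (212612_at) and MTA1 probe set 211783_s_at held at both times under all alternatives and all refits without 1 array. MTA1 probe set 202247_s_at, which the filter on dim probe sets removes, held under the others. At a threshold of 0.01 the member count at 24 h was 5. The calls lost at 24 h were HDAC2 probe set 201833_at (adjusted p = 0.0119 by limma) and HDAC8 probe sets 223345_at (0.0145) and 223909_s_at (0.0245). At 48 h the call of SIN3A probe set 238006_at (0.0113) was lost. The counts for entinostat against DMSO over all probe sets were also lower at this threshold, at both times. Counts over all probe sets moved for the interaction (660), with 1036 under the filter on dim probe sets, 138 after subtraction of 30 and 116 at a threshold of 0.01; for 48 h against 24 h in entinostat (3926), with 2506 after subtraction and 1554 at 0.01; and for the same times in DMSO (196), with 482 under the filter, 26 after subtraction and 10 at 0.01. Under the replicate block that last count was 320, and it held 1 member, HDAC8 probe set 223908_at (-0.35, adjusted p = 0.0424). The block also added CHD4 probe set 201182_s_at at 24 h (adjusted p = 0.0157) and HDAC8 probe set 223909_s_at at 48 h (adjusted p = 0.0281) and removed ESCO2 at 48 h (0.0637), while 10 of 12 arrays correlated best with their own number in the other treatment. The filter on dim probe sets, which lowers the number of tests, called these probe sets too (adjusted p = 0.0321 and 0.0332) and CHD4 probe set 201184_s_at at 48 h (0.0495). With the probe set of the strongest effect per gene, 6 CoREST genes fell at 24 h and 6 SIN3 genes at 48 h, 1 NuRD gene rose at 48 h, 1 cohesin gene rose at 24 h and 0 MiDAC genes fell at 48 h. The cause of these shifts was otherwise not tested.

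Leaving out 1 array gave 210 to 502 interaction calls over all probe sets, 2360 to 3967 for time in entinostat with 0 to 1 members (SIN3A probe set 225135_at without DMSO replicate 2 of 24 h, -0.26, adjusted p = 0.0466), and 1 to 344 for time in DMSO. CHD4 probe set 201183_s_at at 48 h turned to -0.0041 with centred arrays and -0.0009 with quantile normalisation. Signs also turned, in values that had not passed, between the refits without 1 array. At 24 h these were RCOR1 probe set 237041_x_at (-0.0045 to 0.1322), SIN3A probe sets 238005_s_at (-0.039 to 0.2871), 238006_at (-0.0461 to 0.0141) and 238189_at (-0.0809 to 0.0268) and CHD4 probe set 201183_s_at (-0.1959 to 0.0449). At 48 h they were HDAC8 probe set 223908_at (-0.0098 to 0.0885), SIN3A probe set 225135_at (-0.0875 to 0.0556) and CHD4 probe set 201183_s_at (-0.0429 to 0.0748). Of the interactions they were HDAC1 (-0.0473 to 0.1705), MTA1 probe set 211783_s_at (-0.328 to 0.0697) and CHD4 probe set 201183_s_at (-0.0379 to 0.2028). Probe sets near the background of the arrays carry the least information on a change.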
